A study of Mus musculus with 8 samples.

Results

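The complement genes Hc, C3, C4b, Cfb, Cfi, Cd46, Cd55, Cd59a and Serping1 were followed in type I (AECI) and type II (AECII) alveolar epithelial cells of embryonic mouse lungs. The set holds 9 of the 24568 genes measured, or 18 of the 62976 array spots, and was put together because Hc had a much stronger signal in AECII than in AECI on these same arrays. The population difference of the 9 genes is therefore given as a description, with no test, whereas the effect of the mutation and the rest of the complement system were tested.

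Cells were sorted by fluorescence from embryonic lungs, and Fgfr2b signalling, the epithelial receptor route for fibroblast growth factors, was inhibited in vivo from embryonic day 16.5 to 18.5. AECI are the flat cells of gas exchange and AECII are the surfactant-making cells. The arrays fall into 4 groups, AECII and AECI of WT lungs and AECII and AECI of mutant lungs, with 2 arrays a group that the submitters call biological replicates, and the number of arrays limits the precision. The alleles behind the mutant label, the inducing agent, if any, the strain, the sort markers and any pooling of embryos are not stated in the sources used here.

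All values are log2 signals, so that a difference of 1 unit is a 2-fold difference. On every array the median spot had a signal of 5.01, the 25th percentile was 3.3 and the 75th percentile 8.06. No detection limit was used, so a signal near the bottom of the scale (lowest value 2.27) cannot be told apart from background. Of the 9 genes, 5 had a signal of at least 5.01 on all 8 arrays (Hc, C3, Cd55, Cd59a and Serping1), and Cfb was below it on all 8. A signal of 1 spot was not set against that of another spot as a difference in level, and fewer cells of a type and less RNA per cell cannot be told apart in such bulk samples.

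Complement is a cascade of plasma and tissue proteins that marks targets for uptake, draws in leukocytes and perforates membranes. The classical, lectin and alternative pathways meet at C3, whose cleavage leads on to C5 and to the membrane attack complex, while soluble and membrane-bound regulators stop the cascade on the body's own cells. Most complement protein in plasma comes from the liver, and alveolar type II cells are among the other cells known to make some of it.

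Each labelled population had the higher means for its own markers, although some markers of the other population were bright in it too. The summed signal of a list is the log2 of the sum of its linear signals, so that its brightest genes dominate it. For 9 AECI markers it ranged from 14.64 to 15.72 on the AECII arrays and from 17.29 to 17.54 on the AECI arrays. For 10 AECII markers it ranged from 17.69 to 17.78 and from 15.92 to 16.53. The median log2 difference, AECI minus AECII, was 4.13 in WT and 2.83 in mutant lungs for the AECI markers. For the AECII markers it was -1.92 and -2.59. Sftpc read 15.89 to 15.93 in AECII and still 15.16 to 15.49 in AECI. Ager read 15.37 to 15.50 in AECI and still 14.05 to 14.75 in AECII. Many airway genes moved with AECII as well. The summed signal of 8 club and secretory cell markers was 16.49 to 16.73 in AECII, where Scgb1a1 (15.75 to 15.92) dominated it, and 11.27 to 13.02 in AECI. Of these 8 genes 4 were called lower in AECI of WT and 4 of mutant lungs (4.14% and 4.87% of all genes). Bpifa1 had the higher mean in AECI of both genotypes, and Muc5b in AECI of mutant lungs. Of 10 ciliated cell markers 9 were called lower in AECI of WT lungs (median log2 difference -4.58) and 7 in mutant lungs (-4.10). The summed ciliated signal moved less, from 14.92 to 15.11 in AECII to 14.35 to 14.78 in AECI, since Mcidas was bright on all arrays (13.89 to 14.69). The part of airway cells in the population differences below was not tested. Leukocyte markers, for cells that also make complement and carry its receptors, summed to 12.71 to 12.96 in AECII and 12.99 to 13.07 in AECI, a sum that Csf1r dominated (12.59 to 12.87). Cd68 read 7.77 to 9.53 and Ptprc 6.65 to 7.95, and Adgre1 was below the array median on all 8 arrays. Tyrobp reached 7.11 on replicate 2 of WT AECI and 7.37 on replicate 1 of mutant AECI, against at most 5.93 in AECII. Mrc1 reached 6.87 on replicate 1 of WT AECI, and Fcer1g 7.02 on replicate 1 of mutant AECI. Genotype and sex-linked expression cannot be told apart, since Xist lay between 12.44 and 13.17 on the WT arrays and between 3.50 and 5.14 on the mutant arrays, and the Y-linked gene Uty between 2.72 and 3.24 and between 6.71 and 7.47. Eif2s3y, also Y-linked, lay between 3.67 and 5.86 and between 10.46 and 11.05. Kdm5d, also Y-linked, did not separate the genotypes, at 11.95 to 12.75 over all 8 arrays.

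RefSeq promoter windows of GRCm38.p6 were found for 5 of the 9 genes, Hc, C3, Cd46, Cd55 and Cd59a, and were also read for C6, Cd55b and Mbl1. Those of Hc, C3, Cd55 and C6 are printed, for 3 components of the cascade and 1 membrane regulator that the results below turn on, and this choice was made after their values were seen. Each window runs from 250 bases before the annotated start through the first 50 bases from it, and capitals mark matches to the motifs named below. The window of Hc is chr2:35061363-35061662 (minus strand), that of C3 chr17:57228087-57228386 (minus strand), that of Cd55 chr1:130462695-130462994 (minus strand) and that of C6 chr15:4726960-4727259 (plus strand).
Hc: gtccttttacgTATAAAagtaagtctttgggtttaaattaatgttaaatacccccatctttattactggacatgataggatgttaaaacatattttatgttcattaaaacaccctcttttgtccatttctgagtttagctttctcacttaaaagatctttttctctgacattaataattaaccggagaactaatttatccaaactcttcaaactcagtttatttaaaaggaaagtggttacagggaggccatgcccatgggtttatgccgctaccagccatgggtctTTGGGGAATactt
C3: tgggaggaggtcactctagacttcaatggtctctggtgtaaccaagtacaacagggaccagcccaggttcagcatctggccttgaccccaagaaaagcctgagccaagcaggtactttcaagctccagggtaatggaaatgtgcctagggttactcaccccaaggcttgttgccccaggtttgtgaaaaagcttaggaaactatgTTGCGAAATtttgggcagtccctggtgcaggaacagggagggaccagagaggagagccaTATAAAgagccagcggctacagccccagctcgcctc
Cd55: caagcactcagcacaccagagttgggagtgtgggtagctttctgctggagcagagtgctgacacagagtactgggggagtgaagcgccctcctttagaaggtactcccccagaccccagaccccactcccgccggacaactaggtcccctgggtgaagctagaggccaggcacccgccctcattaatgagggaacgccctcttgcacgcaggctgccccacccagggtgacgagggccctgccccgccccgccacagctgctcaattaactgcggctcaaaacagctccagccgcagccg
C6: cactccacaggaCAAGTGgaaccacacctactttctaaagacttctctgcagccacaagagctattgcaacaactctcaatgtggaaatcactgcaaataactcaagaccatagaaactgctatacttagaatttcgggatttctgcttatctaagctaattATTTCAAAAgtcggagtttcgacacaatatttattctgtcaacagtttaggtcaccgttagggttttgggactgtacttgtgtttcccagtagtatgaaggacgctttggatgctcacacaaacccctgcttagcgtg

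Both strands of all 8 windows were searched for 7 motifs. The C/EBP core, written TTNNGNAAT, was matched in 3 of the 8, once each in Hc (first base at 38, counting the start as 1), C3 (at -45) and C6 (at -88), and not in Cd46, Cd55, Cd59a, Cd55b or Mbl1. It was found in 11.5% of 32851 promoter windows. TATAAA, present in 13.6%, was matched in 3 of the 8, Hc (at -239), C3 (at 15) and Cd55b, and the NKX2 site CAAGTG, also present in 13.6%, in 2, C6 (at -238) and Cd55b. The NF-kB consensus (8.46% of all windows) was matched in Cd55b only, and the STAT site TTCNNNGAA (8.3%), the ETS site CCGGAAG (8.86%) and the glucocorticoid receptor consensus (0.222%) in 0 of the 8. No match overlapped another motif, and a match describes the letters only.

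Hc encodes complement C5, the source of the leukocyte attractant C5a and of C5b, on which the membrane attack complex is built. Its 1 spot gave 14.05 and 13.42 in WT and 13.99 and 14.03 in mutant AECII, and 9.73 and 9.88 in WT and 8.60 and 9.08 in mutant AECI. The AECII arrays were among the brightest values of the scale, whose highest signal was 15.99, and no AECI array came near them. The mean signal was 15.2-fold lower in AECI than in AECII of WT lungs (log2 difference -3.93) and 35.8-fold lower in mutant lungs (-5.16). In the order of the group means, WT and mutant AECII overlapped, whereas the mutant AECI arrays lay below both WT AECI arrays.

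C6, which was not among the 9 genes, binds C5b in the next step of the membrane attack complex and was the only 1 of 6 further terminal genes to exceed the 75th percentile (8.06) on any array. C6 read 12.25 and 11.33 in WT and 12 and 11.96 in mutant AECII, and 5.12 and 6.59 in WT and 5.37 and 6.49 in mutant AECI. The populations were far apart in both genotypes, with a fall in AECI by 5.93 on the log2 scale in WT (SE 0.60, limma adjusted p = 0.00332) and by 6.05 in mutant (adjusted p = 0.00267). The other terminal genes C7, C8a, C8b, C8g and C9 had no call between the populations, and C8a and C9 were below the array median on all 8 arrays.

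C3, on which all pathways converge, had 2 spots that both separated the populations. The spot with the higher mean gave 12.68 and 12.71 in WT and 12.57 and 12.78 in mutant AECII, and 10.56 and 9.88 in WT and 10.005 and 9.97 in mutant AECI. The other spot gave 13.06 and 13.17, 13.08 and 13.40, 9.82 and 8.89, and 9.25 and 8.72, in the same order of groups. Both spots were high on all AECII arrays and lower on all AECI arrays, but the size of the gap depended on the spot. It was -2.48 in WT and -2.69 in mutant lungs for the former, and -3.76 and -4.25 for the latter.

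The C3 convertases are assembled from C4 in the classical and lectin pathways and from factor B in the alternative pathway, and neither gene had a strong signal. C4b, which encodes C4, gave 5.26 and 5.43 in WT and 4.84 and 4.92 in mutant AECII, and 5.08 and 5.56 in WT and 5.53 and 4.11 in mutant AECI, with differences of -0.02 and -0.06 between the populations. Its near-identical neighbour C4a read between 2.68 and 3.86, and how far the probes separate the pair was not tested. Cfb, which encodes factor B, gave 4.64 and 4.94 in WT and 3.17 and 4.85 in mutant AECII, and 3.38 and 2.47 in WT and 3.08 and 3.29 in mutant AECI. The 2 Cfb spots disagreed in sign (-1.86 and 0.62 in WT), and all of these values were below the array median.

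Cfi encodes factor I, the serum protease that cuts C3b and C4b once a cofactor protein has bound them. It gave 8.16 and 8.16 in WT and 7.11 and 7.05 in mutant AECII, and 4.55 and 5.61 in WT and 2.65 and 2.98 in mutant AECI. The 4 groups did not overlap at all, with WT AECII highest and mutant AECI, near the bottom of the scale, lowest. The population difference was -3.09 in WT and -4.26 in mutant lungs. Both mutant AECI signals were under the 25th percentile of 3.3, so any difference against them is as measured and can be read only as a lower bound on the size.

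Among the regulators that sit in the cell membrane, all 4 spots of Cd55 had the lower mean in AECI of both genotypes. Cd55 encodes decay-accelerating factor, which takes convertases apart. Its brightest spot gave 10.15 and 10.40 in WT and 10.37 and 10.70 in mutant AECII, and 9.23 and 9.52 in WT and 9.51 and 9.18 in mutant AECI. All AECI arrays were below all AECII arrays, and the difference of the means was -0.90 in WT and -1.19 in mutant lungs. The other 3 spots differed by -1.98, -0.78 and -2.66 in WT and by -1.21, -1.30 and -2.52 in mutant lungs, so that the direction was shared and the size was not. Its rodent paralog Cd55b gave 10.16 and 10.55 in WT and 10.29 and 10.06 in mutant AECII, and 7.92 and 8.17 in WT and 8.08 and 7.80 in mutant AECI. Cd55b was lower in AECI by a log2 difference of -2.31 in WT (limma adjusted p = 0.0055) and of -2.23 in mutant lungs (adjusted p = 0.00548), but its other spot differed by only -0.40 and -0.45. The 2 genes are near-identical, and cross-hybridization was not tested.

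Cd59a, whose product blocks the last step of pore formation, gave 9.85 and 10.10 in WT and 9.28 and 9.24 in mutant AECII, and 9.25 and 8.66 in WT and 9.65 and 7.33 in mutant AECI. One mutant AECI array was thus above both mutant AECII arrays, and the differences were -1.02 in WT and -0.77 in mutant lungs. Its dimmer spot ranged from 2.98 to 6.65. Cd46, the membrane cofactor for factor I, whose expression in the mouse is largely known from the testis, stayed between 2.78 and 5.02 on all arrays and all 3 spots. Cr1l, the rodent membrane regulator that has both cofactor and decay activity, was bright and even, from 11.11 to 11.75 on the 8 arrays, and its population difference was -0.23 in WT (95% confidence interval -0.88 to 0.42, limma adjusted p = 0.714).

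**Figure D1:**
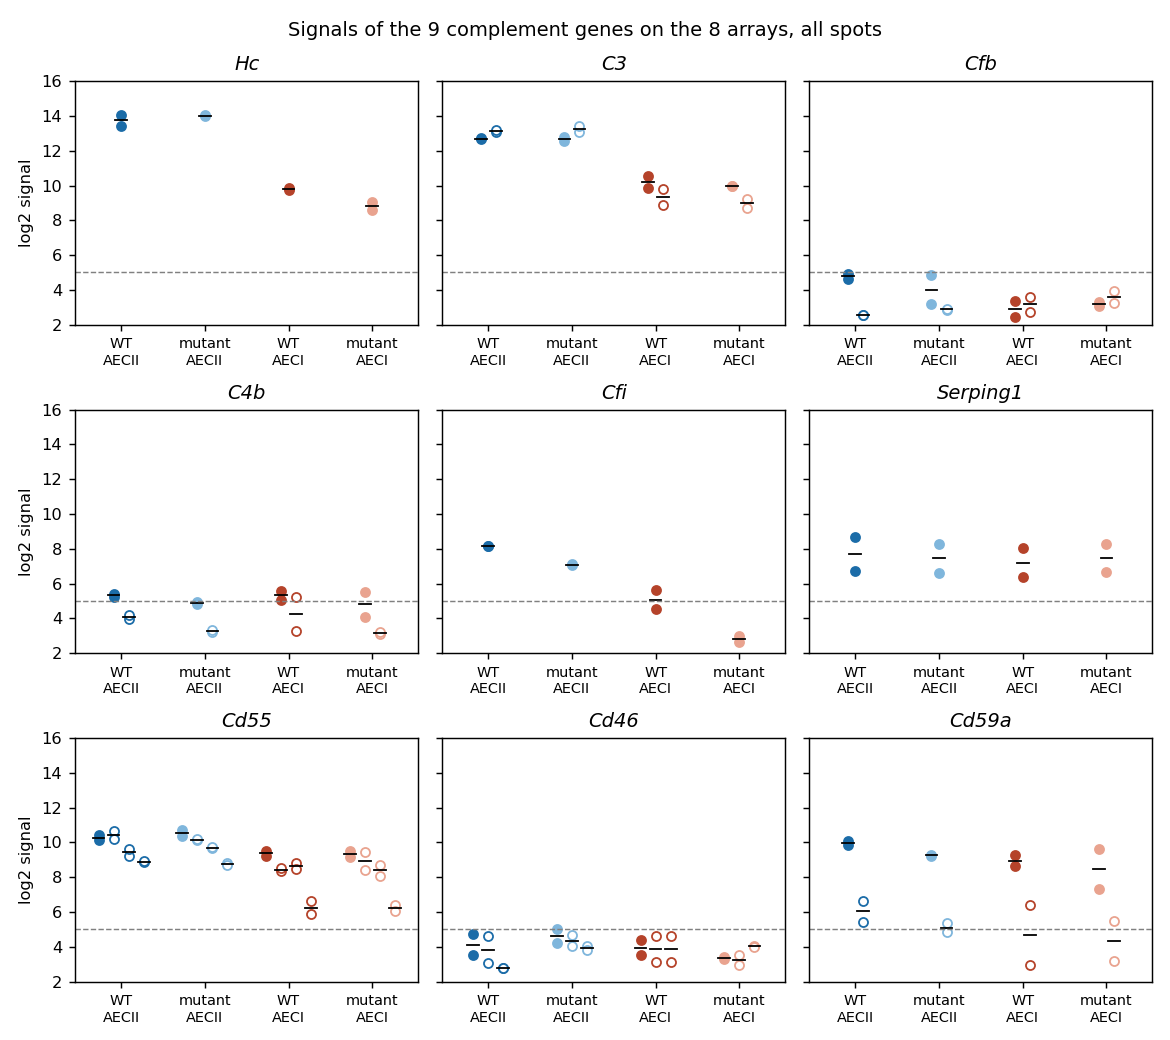
Log2 signal of the 9 complement genes by group (x axis: WT AECII, mutant AECII, WT AECI, mutant AECI). Each point is 1 array, filled points are the spot with the highest mean and open points the other spots of the gene, bars are group means, the dashed line is the array median of 5.01, and the lowest to highest signals of Hc run from 8.60 to 14.05.

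Serping1 encodes the C1 inhibitor, which blocks the first proteases of the classical and lectin pathways, and it differed between replicates more than between groups. It gave 8.69 and 6.70 in WT and 8.27 and 6.63 in mutant AECII, and 6.36 and 8.05 in WT and 6.69 and 8.29 in mutant AECI. Within every group 1 array was bright and the other dim, so that the residual SD was 1.23 against a median of 0.392 over all genes, and the population differences were -0.49 in WT and 0.04 in mutant lungs. Col1a1, which encodes a chain of type I collagen, read 9.28 and 6.15, 9.29 and 7.05, 4.94 and 8.57, and 6.38 and 10.26 in the same order. In all 4 groups the array of the pair with the higher Serping1 signal also had the higher signal for 5 of 8 mesenchymal markers (Col1a1, Col1a2, Col3a1, Pdgfra and Tcf21), as it did for 6.28% of all other genes. Dcn, Acta2 and Postn did so in 1, 2 and 3 of the 4 groups. Of 8 leukocyte markers 0 did so in all 4 groups, and of 8 endothelial markers 2 did. The mesenchymal list was also present in the summed signal (12.62 to 12.89 in AECII and 12.73 to 13.62 in AECI), which Acta2 dominated. The summed signal of 3 erythroid markers also followed Serping1 in WT lungs, at 15.32 and 11.94 in AECII and 11.57 and 15.32 in AECI. In mutant lungs it did not, at 15.06 and 15.15 in AECII and 14.76 and 14.69 in AECI. The part of these lists in the Serping1 values was not tested.

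**Figure D2:**
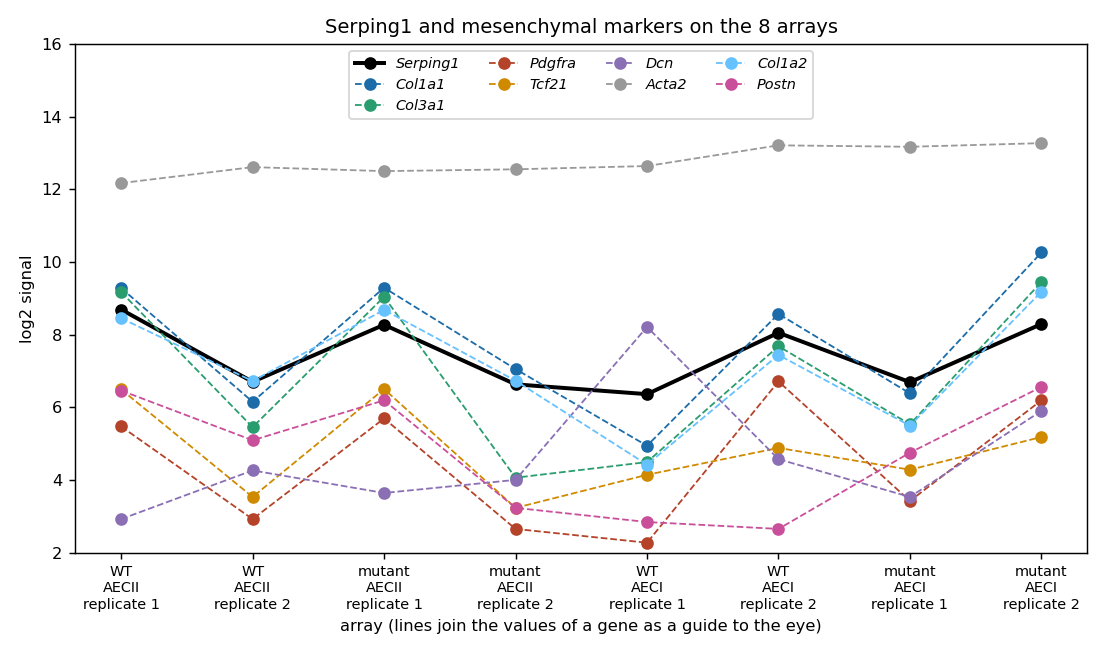
Log2 signal of Serping1 (black) and of 8 mesenchymal markers (dashed) on each of the 8 arrays. Serping1 and Col1a1 were higher on replicate 1 of both AECII groups and on replicate 2 of both AECI groups, from 6.36 to 8.69 for Serping1 and from 4.94 to 10.26 for Col1a1.

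Over the set, the mean of AECI was below that of AECII for 9 of 9 genes in WT lungs and for 8 of 9 in mutant lungs, with Serping1 the exception, and the medians were -1.02 and -1.19 (0.00 and 0.02 over all genes). The sign of the dim or even genes depended on the processing: C4b turned to 0.08 in WT and 0.11 in mutant lungs after median centring, and with the mean of all spots C4b turned to 0.08 and Cd46 to 0.32 in WT. Both AECI arrays lay below both AECII arrays for 6 genes in WT and 5 in mutant lungs, against 25.6% and 26.5% of all genes, and since the set was chosen on this contrast nothing is read from these counts.

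The other complement genes passed the test between the populations about as often as all genes did. Of all genes 7.01% were called in either direction in WT and 7.8% in mutant lungs. At these shares 0 calls in a short list are not read as a result about that list. Of 47 further complement genes measured, 3 were lower and 0 higher in AECI of WT lungs (limma adjusted p under 0.05), where 4.14% and 2.87% of all genes were called lower and higher. At an unadjusted p under 0.05 there were 11 (20% of all genes). In mutant lungs 3 were lower (4.87% of all genes) and 1 was higher (2.93%), and 7 had an unadjusted p under 0.05 (21.5%). The medians over the 47 genes were -0.04 and -0.06. The genes called lower were the same in both genotypes, namely C6, Cd55b and Mbl1. The 2 comparisons share no arrays, only the pooled estimate of the spread, and the list was put together with earlier results of these arrays known.

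By role, the 9 classical pathway genes gave 0 calls in either genotype. C1qa, a chain of the recognition protein C1q that macrophages make, read between 2.82 and 4.37. The other chains differed, with C1qb at 7.10 to 8.20 and the brighter spot of C1qc at 2.83 to 4.09. C2, the protease partner of C4, read between 2.84 and 4.72. Of 8 lectin pathway genes, Mbl1, a mannose-binding lectin, was lower in AECI by -3.09 on the log2 scale in WT (adjusted p = 0.0113) and by -3.16 in mutant lungs (adjusted p = 0.00976). The WT call was lost when either WT AECII array was left out (limma adjusted p = 0.0755 and 0.0631 for replicates 1 and 2) or replicate 2 of WT AECI (0.0537), and the mutant call without mutant AECII replicate 1 (0.0665) or 2 (0.0602). Masp2, the lectin pathway protease that cuts C4 and C2, was higher in AECI of mutant lungs, by 1.57 (adjusted p = 0.0483), and the difference in WT lungs was 1.43 (adjusted p = 0.0692). Its other 2 spots did not share this, with differences of -0.26 and -0.14 in WT and of 0.82 and -0.15 in mutant lungs, and the mutant call was lost with the mean of the spots (0.75, adjusted p = 0.165) and without any 1 of 6 of the 8 arrays (adjusted p up to 0.209).

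Cfd, factor D of the alternative pathway, was at the bottom of the scale on all arrays (2.42 to 3.21). Of 7 soluble regulators 0 were called, among them Clu, which encodes clusterin, an inhibitor of the membrane attack complex, at 9.44 to 10.13. Cd59b, the paralog of Cd59a, ranged from 3.33 to 6.23 over the arrays. The receptors gave 0 calls of 8: C3ar1, the receptor of C3a, read 3.85 to 6.37, and C5ar1, the receptor of the C5a that Hc gives rise to, read 3.31 to 4.54, below the array median throughout. For Itgam the spots disagreed, since the brighter read 13.76 to 14.20 on the 8 arrays and the other only 3.57 to 4.94. No level is therefore read for Itgam. In all, 19 of the 47 genes were below the array median on all 8 arrays, C5ar1 among them, although its AECI arrays (4.03 to 4.54) all lay above its AECII arrays (3.31 to 3.63).

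**Figure D3:**
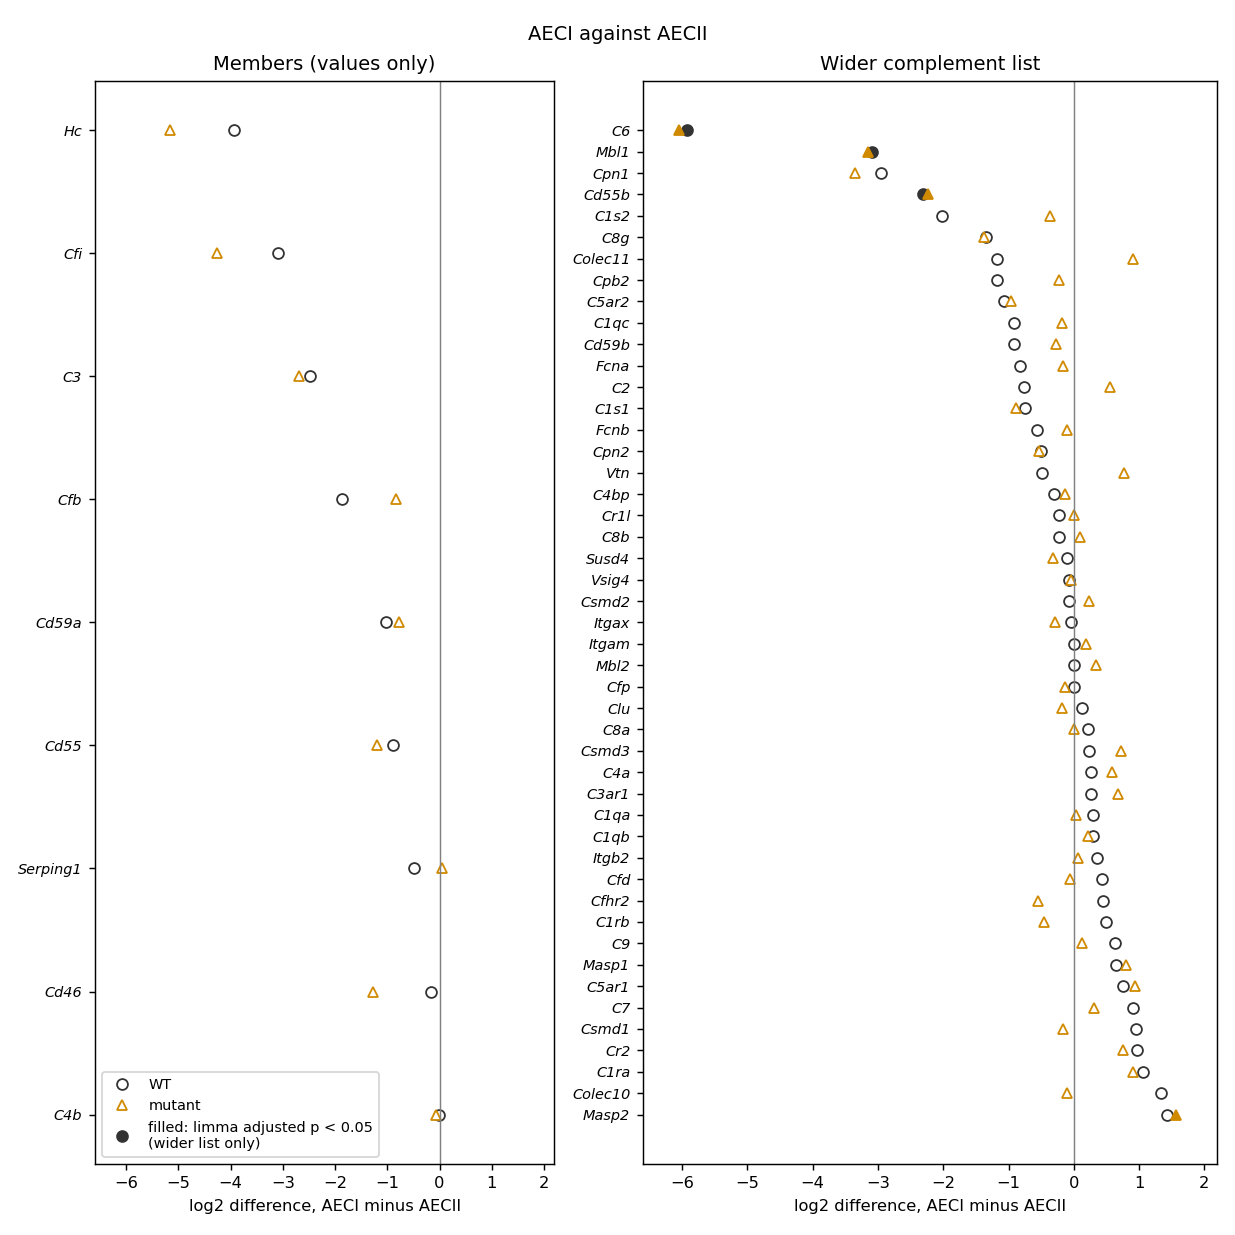
Difference in log2 signal between AECI and AECII (x axis) for the 9 complement genes (left, values only) and the 47 genes of the wider list (right), with circles for WT and triangles for mutant lungs. Filled symbols passed a limma adjusted p of 0.05: C6, Mbl1 and Cd55b to the left in both genotypes and Masp2 (1.57) to the right in mutant lungs.

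Over the 8 arrays the pattern of Hc was followed most closely, among genes with a mean signal at or above the median of all genes, by Acsl5 (Pearson r = 0.9982), Acsl4 (0.9978), Cmtm8 (0.9977), S100g (0.9971) and Aldh1a7 (0.9966). Acsl5 and Acsl4 encode long-chain acyl-CoA synthetases, S100g a calcium-binding protein and Aldh1a7 an aldehyde dehydrogenase. Acsl4 read 13.77 and 13.60 in WT and 13.79 and 13.77 in mutant AECII, and 11.45 and 11.29 in WT and 10.60 and 10.83 in mutant AECI, so that it too was lowest in mutant AECI. Among complement genes the closest were C6 and C3 (0.98 each), Cd55b and Mbl1 (0.97 each) and Cfi and Cd55 (0.93 each). The arrays fall into an AECII and an AECI cluster, and any gene that differs strongly between them has a high r, so these values describe likeness over 8 arrays and carry no p.

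The comparison of mutant with WT lungs was not used to choose these genes. Genotype and sex-linked expression cannot be told apart on these arrays. The comparison therefore cannot address late inhibition of Fgfr2b signalling alone. Of the 9 genes and the 47 others, 0 were called in AECII and 0 in AECI (limma adjusted p under 0.05), where 0.0122% and 0.0163% of all genes were called. These shares stand for only 3 and 4 genes. Among them, in each population, 1 sex-linked gene was called higher and 1 lower in mutant cells. With so few calls over all genes, 0 calls among the complement genes are not read as absence of an effect. At an unadjusted p under 0.05 there were 2 of the 56 in AECII and 4 in AECI, against 4.41% and 7.64% of all genes. The mutant effect differed between the populations for 0 of the 56 (0% of all genes), with 3 at an unadjusted p under 0.05 (4.71% of all genes). Fitting every spot in place of 1 spot per gene also gave 0 calls for the 18 spots, where 0.016% and 0.0137% of all named spots were called in AECII and AECI, and 0% for the difference of the effects.

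Cfi was below WT in the mutant arrays of both populations. In mutant AECII its mean was 2.12-fold below that of WT (log2 difference -1.08, 95% confidence interval -1.98 to -0.19, limma adjusted p = 0.998), and in mutant AECI, where the signal is near the bottom of the scale, the measured log2 difference was -2.26 (-3.15 to -1.36, limma adjusted p = 0.306, and from 0.151 to 0.881 over the alternatives run). Averaged over both populations, a contrast chosen after these values were seen, the difference was -1.67 (-2.30 to -1.04, limma adjusted p = 0.354, and from 0.139 to 0.821 with each array left out in turn). Both mutant arrays were below both WT arrays in each population for Cfi alone of the 9 genes, and for 4.33% of all genes. The mutant effects in the 2 populations differed by -1.17 (-2.44 to 0.09, adjusted p = 0.999). Cfi thus failed the correction in every comparison. The mean log2 signal of the 9 AECI markers was 10.24 and 9.79 in WT AECII and 11.02 and 11.59 in mutant AECII, and that of the 10 AECII markers 12.12 and 11.98 on the WT and 11.19 and 11.38 on the mutant arrays of AECI. All 8 of 8 dissociation stress genes had a higher mean in mutant than in WT cells, with a median of 0.46 in AECII and 0.24 in AECI and 0 called. In AECII 7 of the 8 were above WT without overlap, against 17.6% of all genes. In AECI 2 of the 8 were, against 17.7% of all genes. The part of these lists in the mutant values of Cfi, Hc and the other genes was not tested.

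For Hc, neither mutant effect passed the test, nor did their difference. Between mutant and WT AECII it differed by 0.27 (-0.48 to 1.02, limma adjusted p = 0.998), and between mutant and WT AECI by -0.96 (-1.71 to -0.21, limma adjusted p = 0.56). The difference of these effects was -1.23 (-2.30 to -0.17, limma adjusted p = 0.999). C6, for its part, differed by 0.19 (-1.24 to 1.62) in AECII and by 0.08 (-1.36 to 1.51) in AECI.

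For the other members the intervals bound the mutant effect to different degrees. C3 differed by -0.02 in AECII (-0.73 to 0.69) and by -0.23 in AECI (-0.94 to 0.48). Cd55 differed by 0.25 (-0.41 to 0.92) and -0.03 (-0.70 to 0.64). Changes of more than 1 log2 unit lay outside these intervals, which hold for the spot with the highest mean only. The other C3 spot differed by 0.12 and -0.37. The other Cd55 spots differed by -0.27, 0.27 and -0.14 in AECII and by 0.51, -0.26 and 0.00 in AECI. C4b differed by -0.46 (-1.57 to 0.65) and -0.50 (-1.61 to 0.61), Cd59a by -0.72 (-2.35 to 0.92) and -0.47 (-2.10 to 1.17), and Serping1 by -0.25 (-2.54 to 2.04) and 0.28 (-2.01 to 2.56). Cfb (-0.78 and 0.26) and Cd46 (0.50 and -0.59) stayed near or below the array median, and no direction is read from them. Counted without a test, both mutant arrays were below both WT arrays for 3 genes in AECII (C4b, Cfi and Cd59a, where 18.2% of all genes were so placed) and for 3 in AECI (Hc, Cfi and Cd46, against 17.8%), and above them for 0 in either population (17.6% and 17.7%).

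**Figure D4:**
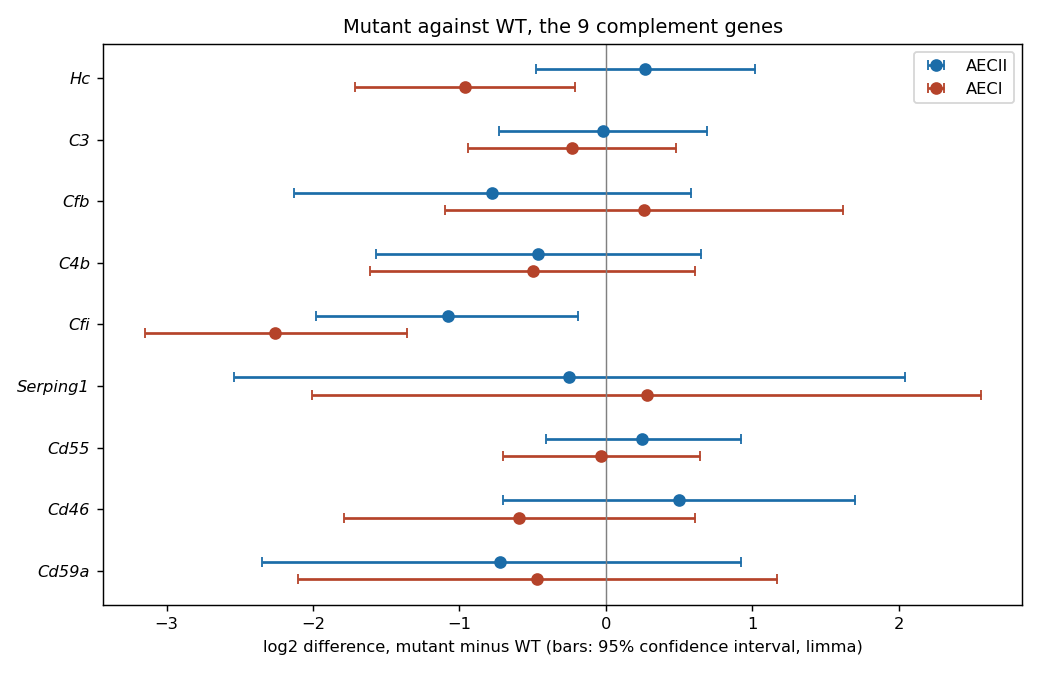
Mutant minus WT difference in log2 signal (x axis) with its 95% confidence interval from limma for the 9 complement genes, in AECII and in AECI. The intervals of Cfi exclude 0 in both populations (-1.08 and -2.26) and that of Hc in AECI (-0.96), before any adjustment over genes.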

How the data were processed

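RNA of sorted AECI and AECII was amplified as cDNA, labelled with Cy5 and hybridized to 8 arrays, per the labels. The authors deposited normalized log2 signals whose quantiles are equal on every array. The submitters' processing notes name limma without a version. The sources used here do not give the background correction or the detection limits. Quantile normalization removes any change in total RNA.

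Spots were named from the platform annotation (43941 of 62976 with 1 symbol). Where the accession of such a spot matched 1 RefSeq gene (33704 spots), the RefSeq symbol was used in its place. Spots with a missing value were left out (57 named spots). Each gene was represented by its spot with the highest mean, and all spots of the 9 genes are also given. The 4 group means were fitted with lmFit and eBayes in limma 3.58.1 (R 4.3.3), two-sided, with Benjamini-Hochberg adjustment over 24568 genes and a threshold of 0.05. The residual degrees of freedom were 4 and those of the prior 2.87. Python 3.11.15 with pandas 2.3.3 and matplotlib 3.10.9 served for summaries and plots. The test was tested on simulated data.

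The 9 genes and all lists were chosen with earlier results of these data known. A further list of 47 complement genes was used. Genes named were all 9, those of the wider list past the threshold, a fixed set of it (C2, Cfd, Clu, Cr1l, Cd55b, Cd59b, C1qa, C3ar1 and C5ar1) and the 5 most like Hc. C1qb, C1qc, C4a, Itgam, Acta2 and the other genes of marker lists are named beside the results they touch. Over all genes, arrays of like replicate number showed no clear pairing (correlations of deviations from the group means from -0.0686 to 0.028). The lowest were between AECI and AECII of the same genotype, -0.0686 in WT and -0.0656 in mutant lungs. Pairing across unlike replicate numbers, the order in which Serping1 and Col1a1 ran, was not fitted. The alternatives were median centring, leaving out the lowest 50% of genes, the mean of all spots, a trended and robust prior, the 4 arrays compared alone, the replicate number as a block and leaving out each array. The forms of the NF-kB and glucocorticoid receptor motifs were changed after matches to earlier forms had been seen. The contrast averaged over both populations was chosen after seeing the data. Where 1 array was left out, its group kept a single array, which was taken to have the spread of the remaining groups.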

Additional observations from a re-analysis of the deposited data

How the results depend on the processing

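Of the 56 complement genes, 0 were called for the mutation under each alternative run, and the population counts of the wider list ran, with an array left out, from 2 to 6 in WT and from 2 to 5 in mutant lungs (6 without WT AECI replicate 1, 2 without either mutant AECII array). Counts over all genes moved more. A trended and robust prior gave 2587 calls between the populations in WT, 2904 in mutant lungs, 8 for the mutation in AECII and 25 in AECI. Leaving out the lowest 50% of genes gave 1 and 2 for the mutation. With the 4 arrays compared alone the WT population count was 822 and the mutant effect in AECI had 0 calls. With the replicate number as a block the mutation gave 0 calls in AECII and 0 in AECI. With arrays left out in turn these counts ran from 527 to 1565 (WT populations), 626 to 1932 (mutant populations), 0 to 11 (mutation in AECII), 0 to 19 (in AECI) and 0 to 1 (difference of the effects).

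Masp2 in WT passed the threshold with the trended prior (adjusted p = 0.048) and the block (0.0442), and in mutant lungs did not with the 4 arrays alone (0.0564) or without any 1 of 6 of the arrays (up to 0.209). With the mean of all spots, Cfb differed between the populations by -0.62 in WT and -0.06 in mutant lungs. Median centring moved every difference by 0.10 and 0.17 between the populations of WT and mutant lungs, and by 0.04 and 0.11 for the mutation in AECII and AECI. The small mutant effects changed sign: C3 in AECII was 0.02 after median centring and 0.05 with the mean of spots, Cd55 in AECI 0.08 and 0.06, the C4b difference of effects 0.03 after centring, and that of Cd55 0.03 with the mean of spots. With arrays left out, the effect in AECII ran from -0.04 to 0.58 for Hc, -0.12 to 0.09 for C3, -1.61 to 0.06 for Cfb, -0.09 to 1.10 for Cd46 and -1.24 to 0.74 for Serping1. In AECI it ran from -0.57 to 0.11 for C3, -1.21 to 0.21 for C4b, -0.19 to 0.71 for Cfb, -0.19 to 0.13 for Cd55, -1.62 to 0.69 for Cd59a and -0.57 to 1.12 for Serping1. The difference of effects ran from -0.55 to 0.13 for C3, -0.75 to 0.67 for C4b, -0.91 to 1.41 for Cd59a and -0.47 to 1.51 for Serping1. The cause was not tested. Cfi kept its direction throughout.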
